A study of Mus musculus with 24 samples.

Results

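The genes described here are 10 immediate early genes that lie outside the AP-1 family: Egr1, Egr2, Egr3, Ier2, Ier3, Ier5, Atf3, Nr4a1, Zfp36 and Klf6. They were taken by symbol from a count table of 18719 genes with 1 symbol and 1 entry each, and all 10 were among the 11438 genes with at least 1 read in every library. The members were chosen by their counts in libraries of normal-organoid replicate 3, where early genes had been seen to stand high, so their levels in those libraries are given as a description and carry no test.

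The study compared normal (N) organoids, grown from ductal isolates of wild-type mouse pancreas, with KP organoids, grown from pancreatic ductal adenocarcinoma of mice in which Pdx1-Cre, a Cre recombinase driven in the pancreatic lineage, switches on a mutant p53 allele. Both kinds were kept in medium without EGF and N-acetylcysteine and were treated for 1 h with vehicle (DMSO) or with 10 nM CR-31, a synthetic rocaglate that inhibits the RNA helicase eIF4A. From each lysate, mRNA bound by at least 3 ribosomes (polysome-associated mRNA) and total mRNA were sequenced separately, after cycloheximide had been given to every group shortly before lysis. There were 3 replicates in each of the 4 groups of organoids, which gave 12 lysates and 24 libraries of 47308461 to 267463046 counted reads.

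Immediate early genes are transcribed within minutes of a growth factor, calcium or stress signal, because the factors that switch them on are already present in the cell. Serum response factor with its ternary complex partners, which are phosphorylated by ERK, acts through a DNA element called the CArG box, and CREB acts through cyclic AMP response elements. The mRNAs are short-lived, and most of the proteins are transcription factors that pass the signal on to later genes. In pancreatic epithelium the same genes respond to growth factor signalling through ERK and to cell stress.

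The members fall into groups by what their proteins do. Egr1, Egr2 and Egr3 are zinc finger transcription factors that bind a GC-rich element. Atf3 is a basic leucine zipper factor induced by many kinds of stress, Klf6 is a Kruppel-like zinc finger factor, and Nr4a1 (Nur77) is an orphan nuclear receptor. Ier2, Ier3 and Ier5 are named only for their rapid induction, with Ier3 known to affect cell survival and ERK signalling. Zfp36 (tristetraprolin) is an RNA-binding protein that speeds the decay of mRNAs with AU-rich elements.

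The elements through which such genes are read were looked for in 300-base RefSeq promoter windows of the mouse build GRCm38.p6. These held 7 of the 10 members (Egr2, Ier3, Ier5, Atf3, Nr4a1, Zfp36 and Klf6). Some of the sites are shown here so that the letters stand beside the levels that follow. A CArG box, read on both strands, was in the windows of Egr2 and Zfp36, against 1.81% of the 27025 genes in the table. The full cyclic AMP response element TGACGTCA was in none of the 7 (2.03% of genes), and its half-site TGACG was in those of Atf3, Egr2 and Nr4a1 (23% of genes). Each TGACGTCA also holds TGACG. The EGR element GCGNGGGCG was in the windows of Nr4a1 and Zfp36 (6.27% of genes). Each CArG box and EGR element is printed with 10 bases on either side, and the coordinates are those of the printed stretch. The TGACG half-sites are not printed as sites of their own. The 2 stretches of Egr2 lay on the plus strand at chr10:67537484-67537513 and chr10:67537787-67537816, with the boxes each 63 bases before the nearest of the gene's annotated starts and outside its annotated exons. The CArG stretch of Zfp36 lay on the minus strand at chr7:28379267-28379296, with the box 49 bases before the nearest start and within an exon of a longer annotated transcript. The EGR stretches lay at chr7:28379315-28379343 (minus strand, with the element 97 bases before the Zfp36 start) and chr15:101266776-101266804 (plus strand, with the element 52 bases before the Nr4a1 start), and in Nr4a1 the letters printed are the reverse complement of the element. Capitals mark only the CArG box or EGR element, and the Nr4a1 stretch also holds a TGACG half-site, on the other strand, in lower case. A match is a description of letters, not of binding.
Egr2 CArG box, first: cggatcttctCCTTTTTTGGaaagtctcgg
Egr2 CArG box, second: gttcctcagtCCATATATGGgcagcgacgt
Zfp36 CArG box: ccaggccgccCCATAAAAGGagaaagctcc
Zfp36 EGR element: gagctacgccGCGGGGGCGcgtcccggaa
Nr4a1 EGR element: gcgtcagtggCGCCCCCGCccctctccat

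Before any comparison, N replicate 3 has to be set apart. Counts scaled to a common library size with TMM factors (CPM) of all 10 members were higher in the library labelled vehicle, polysome-associated, than in any of the other 11 polysome libraries, and all 10 were higher in the library labelled CR-31, total, than in any of the other 11 total libraries. The remaining 2 libraries of replicate 3 were the highest for 0 of the 10. Over all genes tested, 11% were above every other library in both of these libraries.

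**Figure D1:**
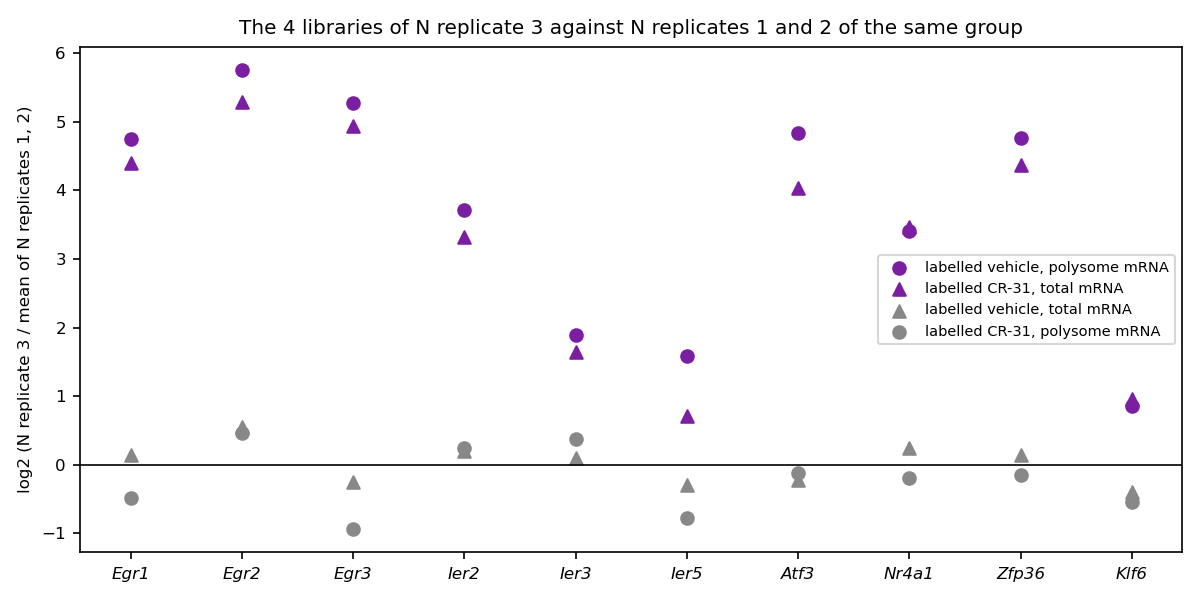
Level of each of the 10 members in the 4 libraries of normal-organoid replicate 3. Values are log2 CPM minus the mean log2 CPM of N replicates 1 and 2 of the same treatment and fraction. Each marker is 1 library, with no error because each ratio rests on 1 library. The libraries labelled vehicle polysome and CR-31 total stand from 1.81-fold (Klf6) to 53.9-fold (Egr2) and from 1.63-fold (Ier5) to 38.9-fold (Egr2) above the other replicates, while the vehicle total and CR-31 polysome libraries stay between 0.521-fold and 1.46-fold.

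The size of the rise differed widely among the members. Egr1 polysome CPM with vehicle in N were 65.8, 135 and 2523 in replicates 1, 2 and 3, and total CPM with CR-31 were 222, 204 and 4491. Atf3 stood at 39.6, 40.1 and 1137 CPM in the same polysome libraries and at 63.1, 74.8 and 1123 CPM in the same total libraries. Klf6 moved less, at 230, 152 and 339 CPM in the polysome libraries and 236, 148 and 363 CPM in the total libraries. Replicate 3 was set against the mean log2 CPM of replicates 1 and 2, which makes the ratio one to their geometric mean. Given for vehicle polysome and then CR-31 total, this ratio was 26.8 and 21.1 for Egr1, 28.5 and 16.4 for Atf3 and 27 and 20.7 for Zfp36. It was 13.2 and 9.97 for Ier2, 10.6 and 11 for Nr4a1, 3.69 and 3.13 for Ier3 and 2.99 and 1.63 for Ier5. In both libraries the EGR genes, Atf3 and Zfp36 were raised most and Klf6, Ier3 and Ier5 least. By the same ratio, Egr2 rose 53.9-fold in the polysome libraries, from 0.297 and 0.305 to 16.5 CPM. Egr3 rose 38.4-fold, from 0.0595 and 0.649 to 7.88 CPM, values so far apart that its ratio depends on the kind of mean. Both of these rest on few reads outside the 2 high libraries.

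The 2 high libraries are labelled as different lysates. Across the 11438 genes, the deviation of the vehicle polysome library from the mean of N replicates 1 and 2 correlated with that of the CR-31 total library at r = 0.815, and the CR-31 polysome library with the vehicle total library at r = 0.720. The libraries labelled as 1 lysate correlated at 0.546 (vehicle) and 0.555 (CR-31), against 0.859 and 0.888 for N replicates 1 and 2 and 0.484 to 0.765 for the 6 KP lysates, each taken as its deviation from the other replicates of its group. Both values for replicate 3 lie below N replicates 1 and 2 and within the range of the KP lysates. In replicate 3 each library was thus closer to one labelled with the other treatment than to its labelled partner, and how this came about was not tested. Genes are not independent replicates. As labelled, Egr1 in replicate 3 had 17.6 times as much polysome as total CPM with vehicle, and 0.0232 times as much with CR-31. The tests between groups below leave out both lysates of N replicate 3, because the members were chosen with their movement there known. Member values with it are given beside them.

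Other early response genes stood with the members in those libraries. Of 6 tested Fos and Jun family genes, which form AP-1, 5 were above every other library in both, with median ratios of 12 and 5.97. Of 42 other immediate early genes 26 were, with median ratios of 2.02 and 1.96, and of 13 inhibitors that feed back on MAPK signalling 4 were. Of 15 upstream factors and EGR corepressors, the proteins through which early genes are switched on or held back, 0 were. Of 12 heat shock genes 5 were, and of 9 integrated stress response genes 3 were. The share of all genes tested was 11%, as given above.

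Per length of transcript, the members spanned a wide range, from the strongly expressed Ier3 and Ier2 to Egr2 and Egr3. In N organoids with vehicle, the mean length-scaled values (RPKM) in polysome libraries of replicates 1 and 2 were 165 for Ier3, 86.6 for Ier2, 44.4 for Klf6, 42.9 for Ier5, 32.2 for Egr1, 28.4 for Zfp36, 19.8 for Atf3 and 5.45 for Nr4a1. Egr2 and Egr3 were close to absent at 0.0997 and 0.0912 RPKM. Within this order, neighbours from Klf6 to Zfp36 overlapped between replicates, as did Egr2 and Egr3, whereas the steps from Ier3 to Ier2 to Klf6 and from Zfp36 to Atf3 to Nr4a1 to Egr2 did not. In KP organoids with vehicle Ier2 stood first at 107 RPKM, followed by Ier3 at 68.1, Egr1 at 37.9, Ier5 at 33.1, Zfp36 at 33, Atf3 at 22.6 and Klf6 at 21.9, all of which overlapped with their neighbours. Nr4a1 at 3.53 RPKM lay below Klf6 without overlap, and Egr3 (0.0311) and Egr2 (0.0304) lay below Nr4a1 without overlap. The low rank of Egr2 and Egr3 held in every group, with 3 to 117 reads for Egr2 and 3 to 138 for Egr3 in the 22 libraries other than the high pair, so that counting error weighs on both.

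**Figure D2:**
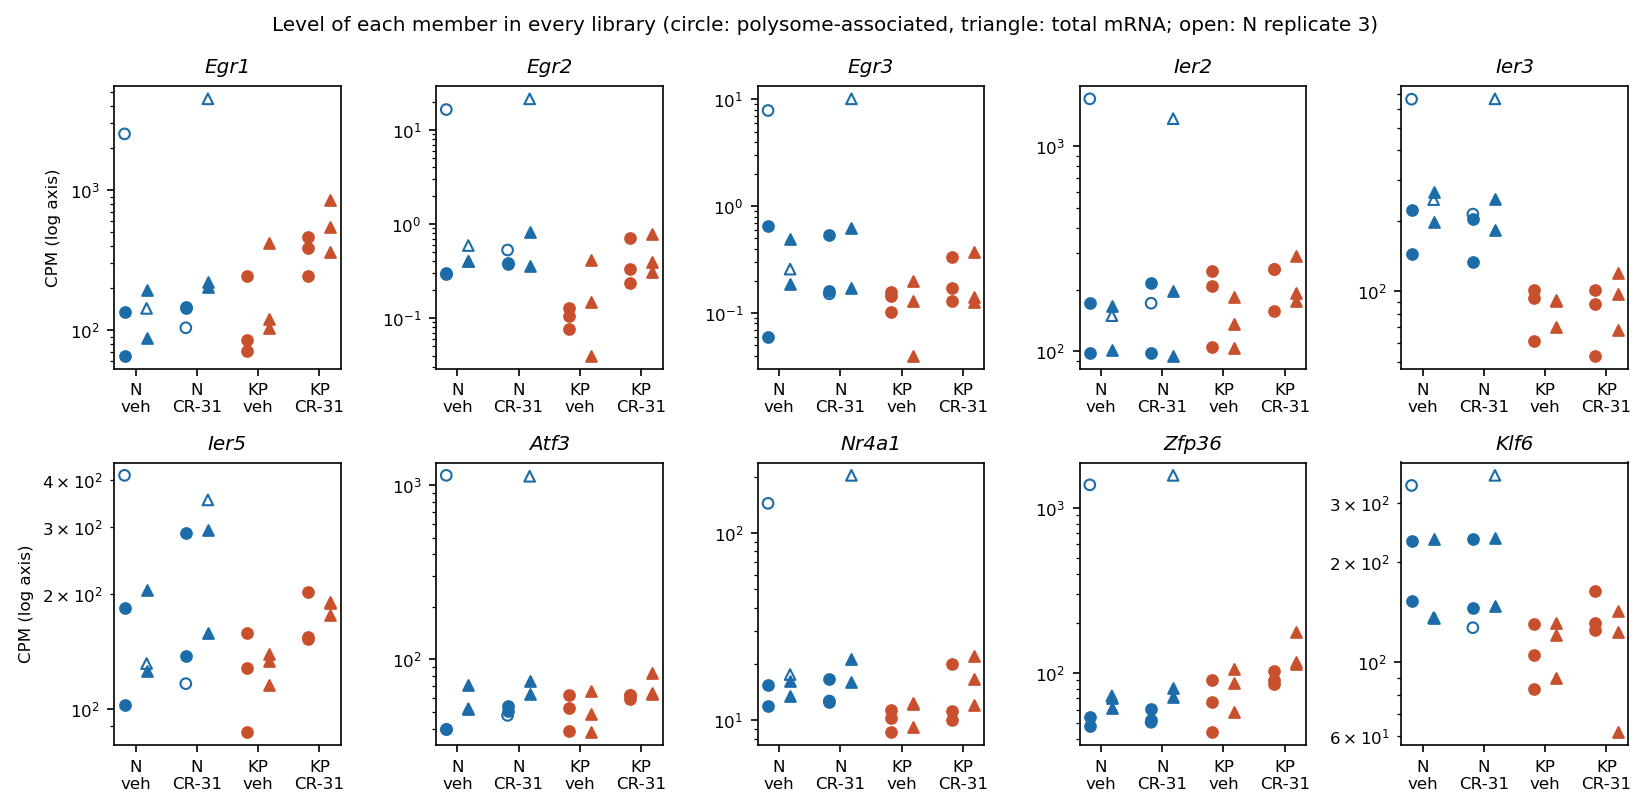
CPM of each of the 10 members in all 24 libraries on a log axis, by organoid type and treatment, with circles for polysome-associated mRNA, triangles for total mRNA and open symbols for N replicate 3. Each symbol is 1 library. The open circle with vehicle and the open triangle with CR-31 in N lie above every other symbol of their fraction for all 10 members, and Egr1 in KP moves from 70.8 to 243 CPM with vehicle to 245 to 463 CPM with CR-31 in the polysome libraries.

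The organoids were checked against cell type markers in the 20 libraries without N replicate 3. Summed duct epithelium markers, led by Krt8, came to 6811 to 16981 CPM over all groups, and acinar markers, led by Cela1, to 3.85 to 6.76 CPM. The duct marker sum was lower in KP than in N without overlap in each treatment and fraction. In vehicle polysome mRNA it was 6811 to 11491 CPM in KP and 11948 to 12553 CPM in N. Islet markers summed to at most 0.236 CPM with 4 of 7 at 0 in every library, fibroblast markers to at most 2.34 CPM with 2 of 10 at 0, and endothelial markers to at most 0.745 CPM. The fibroblast sum, near the floor, was also lower in KP than in N without overlap in each treatment and fraction. Immune markers, mostly Cd14, came to 188 to 592 CPM in N and 93.1 to 244 CPM in KP. The immune sums overlapped in vehicle polysome mRNA (188 to 290 CPM in N) and were higher in N without overlap otherwise. They stood at 1082 and 932 CPM in the 2 high libraries of N replicate 3. The part of these marker differences in the results was not tested. KP and N libraries share no sequencing lane, so lane and organoid type cannot be told apart in what follows.

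The comparison of KP with N organoids on vehicle asked whether the tumour organoids carry a different level of early gene mRNA on polysomes. In polysome-associated mRNA, 3 members were lower in KP, namely Ier3, Klf6 and Egr2, and Atf3 was higher. Thus 4 of 10 passed an adjusted p of 0.25, the study's threshold, against 52.6% of all genes tested (26.3% higher and 26.3% lower), a share below the background. The median difference of the members was -0.28 on the log2 scale, and that of all genes -0.02. In bulk organoids, fewer cells with a given mRNA and less of it per cell cannot be told apart.

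Ier3 gave the clearest difference. With vehicle its polysome CPM were 223 and 144 in N and 93.6, 61.3 and 101 in KP. Every KP lysate lay below both N lysates, with a log2 difference of -1.07 ± 0.34 (SE, n = 2 N and 3 KP), edgeR quasi-likelihood adjusted p = 0.0473. Total mRNA showed the same, with 265 and 198 CPM in N against 91.9, 70.5 and 90.3 in KP, a log2 difference of -1.46 ± 0.28 and edgeR adjusted p = 0.0248. Ier3 was the only member called in total mRNA, where 18.9% of all genes were called, 8.25% higher and 10.7% lower. It stayed lower in KP under CR-31, at 87.7, 53.0 and 101 polysome CPM against 204 and 133, a log2 difference of -1.07 ± 0.34 with edgeR adjusted p = 0.0812. Including N replicate 3 left the call in vehicle polysome mRNA, at -1.97 with edgeR adjusted p = 0.0226, and in vehicle total mRNA, at -1.49 with adjusted p = 0.0427.

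Klf6 and Egr2 were lower in KP polysomes as well. Klf6 stood at 230 and 152 CPM in N and at 105, 83.0 and 130 in KP with vehicle, without overlap, and the log2 difference was -0.81 ± 0.27 with edgeR adjusted p = 0.0591. In total mRNA its KP values of 120, 90.0 and 131 CPM also lay below 234 and 136 in N, but the log2 difference of -0.70 had an edgeR adjusted p of 0.330. Egr2 stood at 0.297 and 0.305 CPM in N and 0.128, 0.0773 and 0.105 in KP, a log2 difference of -1.47 ± 0.56 with edgeR adjusted p = 0.0821, and rests on few reads per library. Egr2 total mRNA overlapped between the types, at 0.401 and 0.406 CPM in N and 0.416, 0.0399 and 0.149 in KP.

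Atf3 differed in the opposite direction on polysomes. Its polysome CPM with vehicle were 39.6 and 40.1 in N and 62.7, 38.9 and 52.5 in KP, which overlapped at the lowest KP lysate, with a log2 difference of 0.41 ± 0.19 and edgeR adjusted p = 0.151. Total CPM were 51.6 and 71.2 in N and 65.6, 38.2 and 48.6 in KP, with a log2 difference of -0.28. The polysome value relative to total, here called translational efficiency, was therefore higher in KP, by 0.64 ± 0.20 on the log2 scale (edgeR adjusted p = 0.0891 for the interaction of fraction and organoid type). The mean log2 ratio of polysome to total CPM was -0.61 in N and 0.02 in KP. Ier3 was the other member called for translational efficiency, higher in KP by 0.36 ± 0.18 with edgeR adjusted p = 0.220, against 35.8% of all genes called and 20% higher and 15.8% lower. With N replicate 3 both turned to lower (-0.71 for Atf3 and -0.23 for Ier3), and no gene of the 11438 passed.

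The other members did not pass on vehicle. Egr1 ranged from 65.8 to 135 polysome CPM in N and from 70.8 to 243 in KP, with a log2 difference of 0.44 ± 0.54, so that its spread among KP lysates exceeded the difference between types. The log2 differences in polysome mRNA were 0.51 ± 0.45 for Ier2, 0.42 ± 0.27 for Zfp36, -0.17 ± 0.37 for Ier5, -0.40 ± 0.32 for Nr4a1 and -1.32 ± 0.92 for Egr3. With N replicate 3 in the fit, all 10 members were lower in KP and called, against 43.1% of all genes and 22.2% lower, and Egr1, Ier2, Atf3 and Zfp36 changed sign, to -2.73, -1.78, -2.94 and -2.84. That picture rests on the 1 vehicle polysome library described above.

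**Figure D3:**
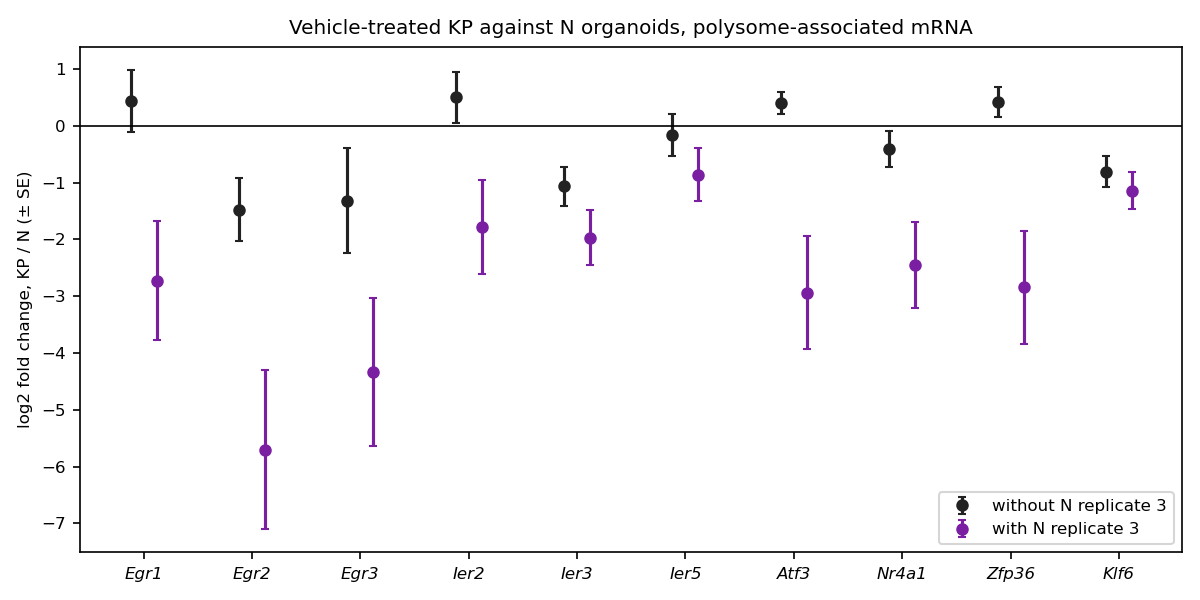
Log2 difference of KP minus N organoids in polysome-associated mRNA with vehicle for each of the 10 members, with error bars of 1 SE from edgeR, fitted without N replicate 3 (n = 2 N and 3 KP) and with it (n = 3 and 3). Without it the differences lie between -1.47 (Egr2) and 0.51 (Ier2), and with it all 10 lie between -5.70 (Egr2) and -0.86 (Ier5).

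Under CR-31, Egr1 and Zfp36 also passed between KP and N organoids. Egr1 polysome CPM with CR-31 were 146 and 145 in N and 463, 389 and 245 in KP, without overlap, a log2 difference of 1.32 ± 0.56 with edgeR adjusted p = 0.166. Zfp36 stood at 60.3 and 51.6 polysome CPM in N and 102, 85.2 and 90.5 in KP, also without overlap, at 0.72 ± 0.27 and edgeR adjusted p = 0.126. With Ier3 these made 3 of 10 called in polysome mRNA, against 34.7% of all genes (16% higher and 18.7% lower), a share near the background. Total mRNA gave 4 of 10 against 26.9% of all genes (13.5% higher and 13.4% lower), namely Egr1 (1.495 ± 0.65), Zfp36 (0.88 ± 0.30), Ier3 (-1.13 ± 0.27) and Klf6 (-0.79 ± 0.37), with edgeR adjusted p of 0.205, 0.121, 0.0570 and 0.232. With N replicate 3, only Ier3 remained in polysome mRNA (-1.19, edgeR adjusted p = 0.164, 25% of all genes called), and in total mRNA 8 were called lower (39.9% of all genes called). Egr1, Ier2, Atf3 and Zfp36 changed sign there, to -1.44, -1.28, -2.54 and -2.03.

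The response of KP organoids to CR-31 was the other main comparison, since eIF4A inhibition acts on the loading of ribosomes. The largest shifts among the members were in Egr1 and Egr2, both toward higher. In polysome-associated mRNA, Egr1 CPM were 243, 84.9 and 70.8 with vehicle and 463, 389 and 245 with CR-31 in replicates 1 to 3. The groups did not overlap, and the ratios within replicates were 1.91, 4.58 and 3.47. Egr2 CPM were 0.128, 0.0773 and 0.105 with vehicle and 0.238, 0.702 and 0.331 with CR-31, again without overlap, with ratios of 1.83, 8.62 and 3.05. The edgeR log2 differences were 1.43 ± 0.49 for Egr1 (unadjusted p = 0.0167, adjusted p = 0.375) and 1.97 ± 0.52 for Egr2 (unadjusted p = 0.00395, adjusted p = 0.352).

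Neither passed without a term for the replicate. In that fit 0 of 10 members were called in polysome mRNA, against 0.0175% of all genes, with 2 members and 1176 of all genes at an unadjusted p under 0.05 in edgeR. DESeq2 called 2 of 10, Egr1 and Egr2, with adjusted p of 0.0914 and 0.142, among 758 genes. Of the 10 members 9 had a positive difference, with a median of 0.42 on the log2 scale against -0.02 for all genes.

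The replicate numbers were taken to pair the KP lysates because same-numbered vehicle and CR-31 libraries deviated together. The study states no replicate block. With the replicate as a block 8 of 10 members were called, all higher, against 25.4% of all genes higher and 29.5% lower. Egr1 rose by 1.61 ± 0.21 on the log2 scale, edgeR adjusted p = 0.00058, and Egr2 by 1.79 ± 0.46, adjusted p = 0.0105. Ier5 (0.45 ± 0.12), Klf6 (0.38 ± 0.11), Zfp36 (0.50 ± 0.14) and Nr4a1 (0.36 ± 0.13) followed with edgeR adjusted p of 0.0127, 0.0185, 0.0193 and 0.0472. Ier2 (0.27 ± 0.12) and Atf3 (0.25 ± 0.12) passed less clearly, with edgeR adjusted p of 0.107 and 0.125. Egr3 (0.50, edgeR adjusted p = 0.487) and Ier3 (-0.13, adjusted p = 0.329) did not pass. When the 6 KP lysates were fitted alone, 8 of 10 were called with the block (27% of all genes higher) and 0 without it. With the block and N replicate 3 in the same fit, 0 were called and Egr1 had an adjusted p of 0.295, while 19.3% of all genes were called.

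KP replicate 2 weighed most on these counts. Its vehicle and CR-31 libraries lie in different lanes, unlike those of replicates 1 and 3, and it had the largest rise within a replicate for 9 of the 10 members. Without both lysates of replicate 2, the block called 5 of 10 higher, against 17.7% of all genes. Egr1 was at 1.34 ± 0.24 (edgeR adjusted p = 0.0114) and Egr2 at 1.20 ± 0.52 (adjusted p = 0.153), while Ier5, Klf6 and Zfp36 had adjusted p of 0.1503, 0.174 and 0.219. Ier2, Atf3 and Nr4a1 no longer passed, with adjusted p of 0.529, 0.733 and 0.418. Without replicate 1 or without replicate 3, 8 of 10 were called higher, against 17.6% and 29.7% of all genes.

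The smaller shifts were seen within replicates more than between groups. Ier5 polysome CPM were 128, 86.9 and 158 with vehicle and 154, 153 and 203 with CR-31, higher in each replicate although the groups overlapped. Klf6 went from 105, 83.0 and 130 to 125, 131 and 163 CPM. Zfp36 went from 66.3, 43.7 and 90.5 to 102, 85.2 and 90.5 CPM, with no change in replicate 3. In polysome mRNA, 6 of 10 members were higher in every same-numbered pair (Egr1, Egr2, Ier2, Ier5, Nr4a1 and Klf6) against 31.3% of all genes, and 2 of 10 did not overlap between groups (Egr1 and Egr2) against 10.3% of all genes.

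**Figure D4:**
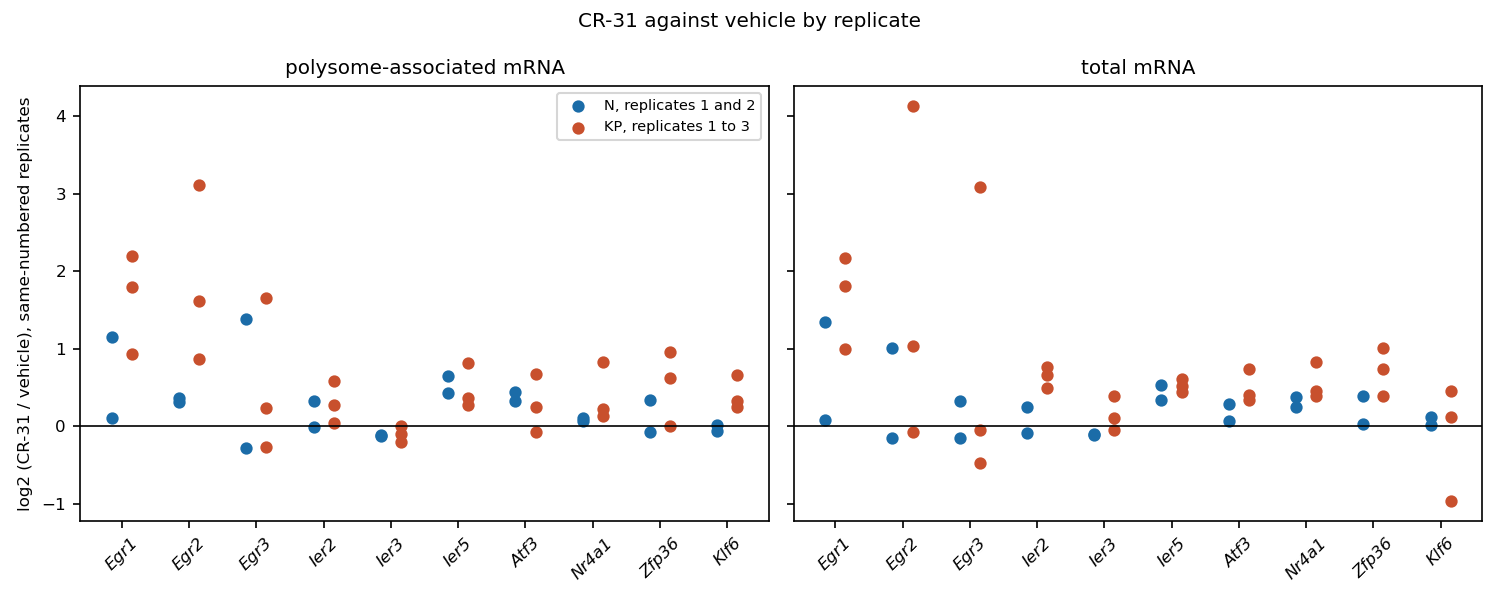
Log2 ratio of CR-31 to vehicle CPM in same-numbered replicates for each member, in N (replicates 1 and 2) and KP (replicates 1 to 3), for polysome-associated and total mRNA. Each point is 1 pair of libraries. For Egr1 in KP all 3 pairs are above 0 in both fractions, with ratios of 1.91, 4.58 and 3.47 in polysome mRNA and 2.00, 4.49 and 3.51 in total mRNA, while Ier3 in KP lies at or below 0 in polysome mRNA and on both sides of 0 in total mRNA.

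KP vehicle and CR-31 libraries were spread over a pair of lanes, one with 2 vehicle and 1 CR-31 lysates and the other with 1 and 2. Within these lanes the log2 difference in polysome CPM was 1.69 and 2.13 for Egr1 and 1.22 and 2.15 for Egr2. Ier2 gave 0.65 and -0.07, Zfp36 0.93 and -0.04, and Ier3 0.21 and -0.47, so these changed sign between lanes. The other members were positive in both lanes. These within-lane differences ignore the replicate pairs, since the vehicle and CR-31 libraries of replicate 2 lie in different lanes. Within same-numbered pairs, the log2 ratios in replicates 1 to 3 were 0.04, 0.58 and 0.28 for Ier2. They were 0.63, 0.96 and -0.0012 for Zfp36 and -0.09, -0.21 and -0.0004 for Ier3.

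In total mRNA 9 of the 10 differences were positive, and none of the members passed with all 3 replicates. Egr1 total CPM in KP were 423, 121 and 103 with vehicle and 846, 544 and 363 with CR-31, an edgeR log2 difference of 1.49 ± 0.56 with unadjusted p = 0.0247. Zfp36 was 106, 58.2 and 87.4 with vehicle and 177, 117 and 114 with CR-31, without overlap, at 0.74 ± 0.26 and unadjusted p = 0.0173. Ier5 also did not overlap, at 133, 115 and 139 against 190, 177 and 189 CPM, with a log2 difference of 0.56. No member was called in edgeR, with or without the replicate block, and no gene of the 11438 was (0% called), while 3 members (Egr1, Nr4a1 and Zfp36) and 138 genes had an unadjusted p under 0.05 and DESeq2 called 0 members. The median of the members was 0.65 on the log2 scale, 2 of 10 did not overlap between groups against 3.40% of all genes, and 6 of 10 were higher in every pair (Egr1, Ier2, Ier5, Atf3, Nr4a1 and Zfp36) against 14.2% of all genes. Without both lysates of KP replicate 1, the block called 8 of 10 higher in total mRNA, with Egr1 at 1.995 ± 0.26 (edgeR adjusted p = 0.0260) and Egr3 and Ier3 not passing, against 11.8% of all genes higher. Without replicate 2 or replicate 3 it called 0.

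Translational efficiency in KP was not called for any member under CR-31 by edgeR, with 1 member and 1980 genes at an unadjusted p under 0.05 and 0% of genes called. With the replicate block 3 members passed, against 46.1% of all genes, a share below the background. Klf6 was higher by 0.53 (edgeR adjusted p = 0.193), and Ier2 (-0.35) and Ier3 (-0.25) were lower, with adjusted p of 0.193 and 0.219. Total CPM of Klf6 with CR-31 were 61.7, 123 and 143, lowest in replicate 1, against 120, 90.0 and 131 with vehicle. Without both lysates of KP replicate 1, the Klf6 difference was 0.17 (edgeR adjusted p = 0.534), and 0 members passed with the block, against 12.2% of all genes. Without replicate 2 only Klf6 passed (0.65, adjusted p = 0.230, 24.6% of all genes), and without replicate 3 the block called 3. Egr1 and Egr2, which rose most on polysomes with the block, were not among them.

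In N organoids CR-31 was compared over replicates 1 and 2 only. Egr1 polysome CPM were 65.8 and 135 with vehicle and 146 and 145 with CR-31, and Ier5 went from 184 and 102 to 290 and 138. By edgeR 0 of 10 members were called in polysome mRNA, total mRNA or translational efficiency, where 0%, 0% and 0.00874% of all genes were called. No member had an unadjusted p under 0.05, and 203, 72 and 51 genes did, while DESeq2 called 0 members in polysome and total mRNA. With the replicate block 3 members were higher in polysome mRNA, Ier5 by 0.56, Atf3 by 0.40 and Egr1 by 0.65, with edgeR adjusted p of 0.0589, 0.162 and 0.208, against 15% of all genes called and 9.68% higher. The libraries of N replicate 2 also lie in different lanes. With N replicate 3 as labelled, the differences for Egr1 would be -2.77 in polysome and 3.52 in total mRNA, opposite in sign, and no member was called.

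The effect of CR-31 in KP minus that in N was tested as an interaction. No member was called by edgeR in either fraction, with 186 genes in polysome and 21 in total mRNA at an unadjusted p under 0.05 and 0% of all genes called. With the replicate block 3 members were called, a share near the background of 27% of all genes. Egr1 was higher by 0.96 ± 0.33, Egr2 by 1.42 ± 0.66 and Klf6 by 0.38 ± 0.17 in KP than in N, with edgeR adjusted p of 0.119, 0.212 and 0.196. Without KP replicate 2 none of the 10 passed and Egr1 had an adjusted p of 0.338, with 6.29% of all genes called. Without KP replicate 1 there were 2 (7.13% of all genes), and without KP replicate 3 there were 5 (40.9%). In total mRNA the block called 0.

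Related genes were counted from lists chosen with earlier results of these data known, so they add no independent evidence. Among 42 other immediate early genes, 4 were higher and 24 lower in KP than in N vehicle polysomes (median -0.73 on the log2 scale), led by Klf10 (-1.85, edgeR adjusted p = 0.00254), a Kruppel-like factor, Pmaip1 (-1.95, adjusted p = 0.00189), a pro-apoptotic BH3 protein, and Tnfaip3 (-2.35, adjusted p = 0.00259), an inhibitor of NF-kappa-B signalling. Of 6 Fos and Jun genes 1 was higher (Jund, 0.54) and 3 lower, with Fosl2 at -1.97 and Fosb at -1.44. Of 13 MAPK feedback inhibitors 3 were higher and 1 lower, with the ERK pathway inhibitors Spry2 at 1.42 and Spry4 at 1.70 and the phosphatase Dusp10 at -1.51. These counts stand beside 26.3% of all genes in each direction. Of 15 upstream factors and corepressors 3 were higher and 5 lower, including the kinase Rps6ka1 (1.17) and the SRF partners Elk3 (-1.68) and Mkl2 (-1.21).

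Stress gene lists were mixed in the same comparison. Of 12 heat shock genes 2 were higher and 4 lower, with the mitochondrial chaperonin Hspe1 at 1.08, Dnajb1 at 0.50 and Hsp90ab1 at -0.38. Of 9 integrated stress response genes 1 was higher and 2 lower, with the serine synthesis enzyme Psat1 at 1.18, the mTOR inhibitor Ddit4 at -1.33 and Vldlr at -0.51. In total mRNA the counts higher and lower were 1 and 20 for the other immediate early genes, 0 and 2 for Fos and Jun genes, 1 and 1 for MAPK feedback inhibitors, 2 and 1 for upstream factors, 0 and 1 for heat shock genes and 0 and 1 for the integrated stress response, against 8.25% of all genes higher and 10.7% lower.

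With CR-31 in KP polysomes no gene of these lists passed without the replicate block. With it, 20 of the 42 other immediate early genes were higher and 5 lower, among them the kinase Plk2, the matricellular gene Cyr61 and Tgif1 (0.63, 0.68 and 0.57 on the log2 scale, edgeR adjusted p = 0.00256, 0.00152 and 0.00295). Of the Fos and Jun genes 4 were higher and 1 lower with the block, with Fos at 1.55 (edgeR adjusted p = 0.000275), Fosl2 at 0.70 and Jund at -0.47. Of the MAPK feedback inhibitors 8 were higher and 2 lower, with Dusp1, a phosphatase that switches off MAP kinases, at 0.62 (edgeR adjusted p = 0.0103), Errfi1 at 0.45 and Dusp10 at 0.30. All values are those of the fit with the block, whose background was 25.4% higher and 29.5% lower.

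Of 12 heat shock genes 8 were higher and 1 lower with the block, with Hsph1 at 0.89, Hspa1b at 0.86 and Hspa1a at 0.74. Hspa1a and Hspa1b are near-identical copies between which reads cannot be divided with certainty. Of the integrated stress response genes 2 were higher and 5 lower, with Atf4 at -0.24, Chac1 at -0.52 and Trib3 at -0.60. Of the upstream factors 4 were higher and 5 lower, with Map2k2 (MEK2) at -0.60, Mapk3 (ERK1) at -0.55 and Mkl2 at 0.32.

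Genes whose levels ran most like those of the members were sought over all 12 lysates. In polysome mRNA the highest Pearson r with the mean centred log2 CPM of the members was that of Dusp1 (0.973), then Fos (0.957), Smyd3 (0.948), Gem (0.945) and Pgm1 (0.942). In total mRNA it was Dusp1 (0.971), Fos (0.943), Dnajb1 (0.930), Arl4d (0.927) and Jun (0.924). Each of these rests on the 1 high library of its fraction, which stands apart from the other 11. Over the 10 lysates without N replicate 3, the leading gene was Pcf11 (0.929) in polysome mRNA and Slc17a7 (0.863) in total mRNA.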

How the data were processed

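The authors deposited 1 table of 24 libraries with read counts per gene and RPKM values side by side. They aligned reads with HISAT2 at default settings, discarded multi-mapping reads, and computed counts and RPKM over full coding transcripts. The methods name a human build although the rows are mouse RefSeq genes, and use of strand is not stated. The submitters' processing notes also name SAMtools. All per-sample columns were used.

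The deposited counts were tested with the edgeR (4.0.16, R 4.3.3) quasi-likelihood test, TMM scaling, over the 11438 genes that had reads in all 24 libraries, with all 4 groups of a fraction in 1 fit and Benjamini-Hochberg adjusted p under 0.25, the study's threshold. Translational efficiency was the interaction of fraction and group with lysate as a block. N replicate 3 was left out, and entered as an alternative. CPM are counts scaled to a common library size over the tested genes with TMM factors. Levels between genes use the deposited RPKM. Fits without the replicate block were checked before use on simulated counts of independent libraries with the same fixed spread for every gene. That check does not cover the replicate block, libraries that deviate together or genes that spread more widely than was set.

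KP numbers were taken to pair vehicle with CR-31 because same-numbered libraries deviated together, with r across genes of 0.796, 0.752 and 0.723 in polysome and 0.455, 0.585 and 0.803 in total mRNA. In N they were 0.807, 0.758 and 0.554, and 0.892, 0.799 and 0.647. Nothing says that replicates came from separate animals, so p-values measure the spread between these samples, which may be technical. Alternatives were other scalings (RLE, upper quartile), no filter on low counts, a lane term, the replicate block, DESeq2 (1.42.0), regression of polysome on total, and leaving out each lysate. The members and lists were chosen with earlier results of these data known. Named genes were the 10 members, up to 3 genes of each list with the smallest p in KP against N polysome mRNA and in CR-31 against vehicle KP polysome mRNA, the 5 genes per fraction most like the members by Pearson r, and the most abundant cell type markers. Sequences came from RefSeq promoter windows (GRCm38.p6), which matched 7 of 10 members. Drawing used Python 3.11.15 and matplotlib 3.10.9. One item of the KP genotype is not reported here.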

Additional observations from a re-analysis of the deposited data

Results flagged for a closer look

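In normal-organoid replicate 3, 10 of 10 members were above every other polysome library in the library labelled vehicle, polysome-associated, and 10 of 10 were above every other total library in the library labelled CR-31, total. The other 2 libraries of that replicate were highest for 0. The members were chosen with this rise already known, so it is a description, and its origin was not tested.

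The effect of CR-31 on polysome-associated mRNA differed between KP and N by the interaction test with the replicate block for 3 members. The KP minus N difference on the log2 scale was 0.96 for Egr1, 1.42 for Egr2 and 0.38 for Klf6, against 27% of all genes called in the same fit, so 3 of 10 is near the background. Without both lysates of KP replicate 2, whose libraries lie in different lanes, 0 of the 10 passed. Without the block none of the 10 passed in edgeR, with 186 of all genes at an unadjusted p under 0.05. Groups of 3 were too small for a test of single outlying samples.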

How the results depend on the processing

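Counts are members called of 10. KP against N on vehicle gave 10 with N replicate 3 and 3 to 6 without 1 lysate in polysome mRNA, 1 to 2 without 1 lysate in total mRNA, and for translational efficiency 1 with upper-quartile scaling, 1 with no filter, 0 with N replicate 3 and 0 to 3 without 1 lysate. With CR-31, KP against N gave 1 with N replicate 3 and 1 to 3 without 1 lysate in polysome mRNA, and 8 and 1 to 4 in total mRNA. CR-31 in KP gave 8 with the replicate block, 8 for KP lysates alone with the block and 2 with DESeq2 in polysome mRNA, and 3 with the block and 0 to 3 without 1 lysate for translational efficiency. CR-31 in N, and the KP minus N effect, each gave 3 with the block in polysome mRNA. The block changed no other count of members called. With the block and without KP replicate 1, 2 or 3, CR-31 in KP gave 8, 5 and 8 in polysome mRNA, 8, 0 and 0 in total mRNA and 0, 1 and 3 for translational efficiency, and the KP minus N effect gave 2, 0 and 5 in polysome mRNA. Over all genes, CR-31 in KP polysomes gave 2 calls, 6276 with the block and 758 with DESeq2. The block was not run for KP against N because its numbers are nested in organoid type. KP lysates alone, and the block with N replicate 3 or without a KP replicate, were chosen after seeing the data.

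With N replicate 3, signs turned in KP against N for Egr1 (-2.73), Ier2 (-1.78), Atf3 (-2.94) and Zfp36 (-2.84) in vehicle polysome mRNA, for Egr1 (-1.44), Ier2 (-1.28), Atf3 (-2.54) and Zfp36 (-2.03) in CR-31 total mRNA, for Egr2 (-0.018) in CR-31 polysome mRNA, and for Ier3 (-0.23), Atf3 (-0.71), Egr3 (-1.24), Ier2 (-0.70), Ier5 (-0.47) and Zfp36 (-1.24) in translational efficiency. Without 1 lysate, polysome log2 differences of KP against N ranged over -0.33 to 1.05 for Egr1, -2.21 to 1.22 for Egr3 and -0.53 to 0.32 for Ier5, and total ones over -0.33 to 1.33 for Egr1, -0.20 to 0.46 for Ier2, -0.64 to 0.016 for Ier5 and -0.51 to 0.0081 for Atf3. Those of CR-31 in KP ranged over -0.065 to 0.47 for Ier2 and -0.31 to 0.12 for Ier3 in polysome, and over -0.020 to 0.42 for Ier3 and -0.28 to 0.23 for Klf6 in total mRNA. Depth limits Egr2 and Egr3, with as few as 3 reads in a library. The causes were not tested.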
